A study of Homo sapiens with 6 samples.

Results

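The genes described here are 10 components of TGF-β signalling: the ligands TGFB1 and BMP4, the receptors TGFBR1 and TGFBR2, the signal carriers SMAD2, SMAD3 and SMAD4, the inhibitor SMAD7, and the co-repressors SKI and SKIL. They were taken by name: every row of the deposited transcript count table whose GENCODE v29 symbol was one of these names was kept, and the rows were summed per gene. All 10 names had rows, and they made up 10 of the 18768 genes and 68 of the 98886 transcripts in the table. The libraries came from HCT116, an established human colorectal cancer cell line, grown in serum-containing DMEM. In the siRNA-NC group (3 libraries) the cells had received a negative control siRNA, and in the si-AC010789.1 group (3 libraries) an siRNA directed at the long non-coding RNA AC010789.1. Both groups were therefore transfected cells of 1 line, and no untransfected cells were analysed here. The time between transfection and RNA extraction is not given in the sources used here. The comparison was of mRNA levels between cells given the siRNA against AC010789.1 and cells given the control siRNA. In this design, effects of the silencing and other effects of that siRNA cannot be told apart.

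Each library held between 11277222 counts (siRNA-NC replicate 1) and 13443866 counts (siRNA-NC replicate 3), and a count of 3, taken as the detection floor, corresponded to 0.223 to 0.266 CPM (counts scaled to the library size). The level of AC010789.1 itself was not analysed here, so the knockdown was not checked from these counts. The study reported a check of the knockdown in its RNA-seq samples. Of the 9 intestinal epithelial markers, KRT8 (444 to 850 CPM), KRT18 (351 to 535 CPM) and EPCAM (3.10 to 5.59 CPM) were above the floor in every library, LGALS4 was at or below 0.225 CPM, and no row was matched for KRT19, KRT20, CDX1, CDX2 and VIL1. The 4 markers summed to 985 to 1229 CPM in siRNA-NC and 801 to 1041 CPM in si-AC010789.1. The fibroblast genes with rows, 4 of 6, summed to 59.7 to 69.3 CPM in siRNA-NC and 63.9 to 68.6 CPM in si-AC010789.1, mostly from COL1A1 and PDGFRB. CD14, the 1 of 5 leukocyte markers with a row, stayed at or below 1.13 CPM, and CDH5 and VWF, 2 of 4 endothelial markers, summed to 0.873 to 2.51 CPM.

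TGF-β signalling starts when a dimeric ligand brings together type II and type I receptor kinases at the cell surface. The type II receptor (TGFBR2) phosphorylates the type I receptor (TGFBR1), which phosphorylates SMAD2 and SMAD3. These bind SMAD4, enter the nucleus and act with other factors on target genes. SKI and SKIL hold back SMAD-dependent transcription, and SMAD7 is induced by the pathway and blocks the receptors. BMP4 uses related receptors and other receptor-regulated SMADs. In the colon the pathway restrains growth of the epithelium, and tumours with defective mismatch repair, the class to which HCT116 belongs, often carry frameshifts in an adenine run in the TGFBR2 coding sequence.

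The sequences below are those on which the transcript results and the miRNA context turn, read from GENCODE v29 transcripts on GRCh38 and, for the miRNA, from RefSeq on GRCh38.p14. TGFBR2-202 and TGFBR2-201, the transcript pair of the type II receptor, differ in the coding sequence by 75 bases at chr3:30623199-30623273 on the plus strand, which TGFBR2-201 lacks. Both carry the adenine run, 10 bases at chr3:30650380-30650389. SKIL-204 holds 138 coding bases, at chr3:170384628-170384765 on the plus strand, that SKIL-202 lacks. Capitals mark the first coding bases present only in the longer form of each pair, the adenine run, and the seed (bases 2 to 8) of hsa-miR-432-3p, the miRNA that the study linked to AC010789.1, encoded at chr14:100884544-100884564 on the plus strand. The adenine run is shown as the reference has it, and the sequence carried by these cells was not analysed here.
TGFBR2-202: acgttcagaagtcggATGTGGAAATGGAGG
TGFBR2-201: acgttcagaagtcggttaataacgacatga
TGFBR2 adenine run: attatgaaggAAAAAAAAAAgcctggtgag
SKIL-204: caaagacagaggcaaGTAAGTCCATATCAA
SKIL-202: caaagacagaggcaaatgcatcaatctcaa
hsa-miR-432-3p: cUGGAUGGcuccuccaugucu

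The seed of hsa-miR-432-3p was also looked up in the annotated 3′ UTRs of the 10 genes, on the transcript strand, as the 7-base letters CCATCCA or CATCCAA, which overlap each other when both occur at 1 place. Such a match lay in the 3′ UTR of 4 of the 10 genes (TGFBR2, BMP4, SMAD4 and SMAD2), against 19.2% of the 12317 tested genes with an annotated 3′ UTR, and the 6-base match CATCCA in 5 of the 10, against 35.4%. SMAD2 had 5 matches, in a 3′ UTR of 32870 bases in SMAD2-201, SMAD4 had 2, and TGFBR2 and BMP4 had 1 each. In SMAD2, the matches at chr18:47819819-47819825 and chr18:47819820-47819826 overlap and are 1 place. The length of the 3′ UTRs was not taken into account in these shares. TGFBR1, TGFB1, SMAD3, SMAD7, SKI and SKIL had no 7-base match. The sites of TGFBR2 and BMP4 and 1 site of SMAD4 are shown as examples, with the match in capitals. A match is a description of the letters, and no binding was measured here.
TGFBR2 at chr3:30692448-30692454, plus strand: aacagatgtccCCATCCAtgcgattgccc
BMP4 at chr14:53949951-53949957, minus strand: cacacacgttcCCATCCActcacccacac
SMAD4 at chr18:51079011-51079017, plus strand: ttgtaatctttCATCCAAaatattttttg

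Per unit of transcript length, as TPM (counts divided by transcript length and scaled to the library, median of the 6 libraries), TGFB1 was the highest of the 10 genes at 104 TPM (range 99.5 to 118 TPM), followed by TGFBR1 at 90.5 TPM (76.5 to 132 TPM), SMAD2 at 60.4 TPM (38.5 to 107 TPM) and SKIL at 59.4 TPM (43.0 to 89.4 TPM). SKI stood at 36.1 TPM (33.6 to 38.5 TPM), TGFBR2 at 30.1 TPM (24.5 to 35.7 TPM), SMAD7 at 27.7 TPM (14.7 to 33.3 TPM), SMAD3 at 25.0 TPM (22.3 to 26.8 TPM) and SMAD4 at 18.8 TPM (16.6 to 27.9 TPM). BMP4 was at 0.992 TPM (0.817 to 1.39 TPM). The line thus held transcripts of every step from ligand to co-repressor, with BMP4 far below the rest. Of neighbours in this order, the ranges were apart only between SKIL and SKI and between SMAD4 and BMP4. A gene's TPM moves with the share of its long and short transcripts as well as with its counts, and SMAD2-201, the main SMAD2 transcript, is 34526 bases long.

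The 10 genes all passed the filter on low counts. In the gene-level edgeR quasi-likelihood test, 0 of the 10 had a Benjamini-Hochberg adjusted p under 0.05, against 0.944% of the 13764 genes tested. DESeq2 called 1 of the 10 (TGFBR2), against 3.77% of all genes tested. Genes to which it gave no adjusted p, BMP4 among them, count as not called in both. At an unadjusted edgeR p under 0.05 there were 3 of 10 (TGFBR2, TGFBR1 and SKI), against 17.2% of all genes. The same 3 genes were those whose libraries did not overlap between the groups, 1 higher (12.2% of all genes) and 2 lower (12.9%). The median log2 fold change of the 10 was -0.05, and that of all genes was -0.00060. By sign, 4 were higher and 6 lower in si-AC010789.1, and 49.9% of all genes were higher. Replicates were separate samples that the study called biological repeats, made with cells of different passages. With 3 libraries against 3, the exact two-sided permutation test on CPM cannot go below p = 0.1.

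**Figure D1:**
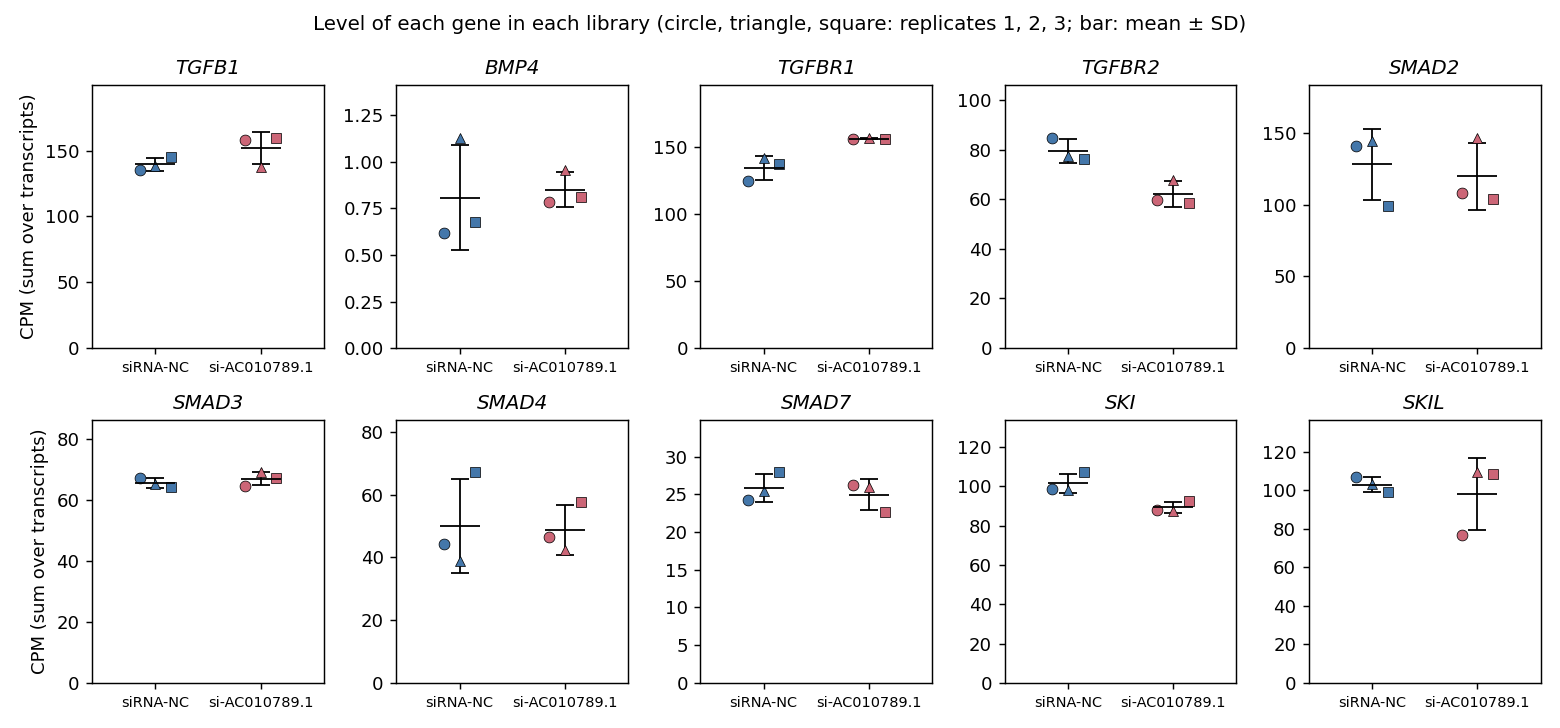
Level of each of the 10 genes in each library, in CPM summed over transcripts (vertical axis from 0), with replicates 1, 2 and 3 as circle, triangle and square and the mean ± SD as a black bar. The groups are apart for TGFBR1 (higher in si-AC010789.1), TGFBR2 and SKI (lower), and overlap for the other 7 genes.

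TGFBR2 (ENSG00000163513.17, chr3:30606502-30694142, plus strand), the type II receptor that binds the ligand, had the log2 fold change furthest from 0 of the 10 genes. Its level was 84.8, 77.5 and 76.1 CPM in siRNA-NC replicates 1, 2 and 3, and 59.7, 67.9 and 58.4 CPM in si-AC010789.1 replicates 1, 2 and 3. All 3 si-AC010789.1 libraries lay below all 3 siRNA-NC libraries. The means were 79.5 ± 4.69 CPM and 62.0 ± 5.15 CPM (SD, n = 3), a fold of 0.781. The log2 fold change was -0.36 (SE 0.083, unadjusted p = 0.00408, edgeR adjusted p = 0.110), and the exact permutation p was 0.1. DESeq2 gave the same log2 fold change, -0.36, with an adjusted p of 0.0262, so the call depends on the tool. Without any 1 library the log2 fold change stayed between -0.43 and -0.31. In bulk RNA, fewer cells that express a gene and less of its RNA per cell cannot be told apart.

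TGFBR1 (ENSG00000106799.12, chr9:99104038-99154192, plus strand), the type I receptor kinase, showed the opposite sign. It measured 124, 142 and 137 CPM in the siRNA-NC libraries and 156, 157 and 156 CPM in the si-AC010789.1 libraries. The si-AC010789.1 values were nearly equal (156 ± 0.690 CPM, SD, n = 3) and above every siRNA-NC value (134 ± 9.10 CPM). It had a log2 fold change of 0.22 (SE 0.059, unadjusted p = 0.00916, edgeR adjusted p = 0.149, exact permutation p = 0.1), and the DESeq2 adjusted p was 0.109. Neither tool called the difference.

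Taking both receptors within each library, which removes the library size, TGFBR1 had 1.46, 1.83 and 1.8 counts per TGFBR2 count with siRNA-NC and 2.61, 2.31 and 2.66 with si-AC010789.1. The ratio was 1.70 ± 0.203 against 2.53 ± 0.191 (SD, n = 3). Its groups had to be apart, because those of both genes were, in opposite directions, so this adds no separate result. This ratio was chosen after the values of both genes had been seen and was given no test, and since it is in counts it does not compare the receptors per length.

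The values of both ligands overlapped between the groups. TGFB1 (ENSG00000105329.9, chr19:41301587-41353911, minus strand), the ligand of these receptors, measured 135, 138 and 145 CPM with siRNA-NC and 158, 138 and 160 CPM with si-AC010789.1. Replicate 2 of si-AC010789.1 lay within the siRNA-NC range. edgeR put the log2 fold change at 0.12 (SE 0.071, edgeR adjusted p = 0.433). Exons of TGFB1 overlap those of HNRNPUL1 on the opposite strand, which held 6070 to 7869 counts per library, and whether counting used the strand is not given in the sources used here. BMP4 (ENSG00000125378.15, chr14:53949736-53958761, minus strand), a ligand of the BMP branch, had 7, 15 and 9 counts with siRNA-NC and 9, 12 and 10 counts with si-AC010789.1. Its levels were 0.809 ± 0.280 CPM and 0.852 ± 0.0936 CPM (SD, n = 3), and the fitted log2 fold change of 0.07 had an SE of 0.35 (edgeR adjusted p = 0.95). No difference in BMP4 was detectable at this depth.

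SMAD2 and SMAD3, the substrates of TGFBR1, overlapped between the groups. SMAD3 (ENSG00000166949.15, chr15:67063763-67195195, plus strand) was among the steadiest of the 10 genes. Its level was 67.3, 65.1 and 64.3 CPM with siRNA-NC and 64.6, 69.0 and 67.3 CPM with si-AC010789.1, with a log2 fold change of 0.03 (SE 0.058, edgeR adjusted p = 0.829). SMAD2 (ENSG00000175387.15, chr18:47808957-47931146, minus strand) varied more within the groups than between them. It measured 140.5, 144 and 99.3 CPM with siRNA-NC and 108, 147 and 104 CPM with si-AC010789.1. Replicate 3 of both groups and replicate 1 of si-AC010789.1 were low. Its log2 fold change was -0.10 (SE 0.19, edgeR adjusted p = 0.834).

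SMAD4 (ENSG00000141646.13, chr18:51028394-51085045, plus strand), the partner shared by the TGF-β and BMP branches, measured 44.1, 38.8 and 67.1 CPM with siRNA-NC and 46.4, 42.3 and 57.6 CPM with si-AC010789.1. Replicate 3 was the highest in each group. The log2 fold change was -0.04 (SE 0.22, edgeR adjusted p = 0.95), and without siRNA-NC replicate 3 it turned to 0.23. SMAD7 (ENSG00000101665.9, chr18:48919853-48952052, minus strand), the inhibitory SMAD, measured 24.3, 25.4 and 27.9 CPM with siRNA-NC and 26.3, 26.0 and 22.6 CPM with si-AC010789.1, giving a log2 fold change of -0.05 (SE 0.098, edgeR adjusted p = 0.829). SMAD4 shares exons on its own strand with AC091551.1, which held 2 to 11 counts.

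Of the co-repressors, SKI had groups that were apart and SKIL did not. SKI (ENSG00000157933.9, chr1:2228695-2310119, plus strand) measured 98.8, 98.3 and 107 CPM with siRNA-NC and 88.1, 87.3 and 92.4 CPM with si-AC010789.1. All si-AC010789.1 libraries lay below all siRNA-NC libraries. The means were 101 ± 4.91 CPM and 89.3 ± 2.73 CPM (SD, n = 3), with a log2 fold change of -0.18 (SE 0.058, unadjusted p = 0.0176, edgeR adjusted p = 0.194, exact permutation p = 0.1) and a DESeq2 adjusted p of 0.250. SKIL (ENSG00000136603.13, chr3:170357678-170396835, plus strand), itself a target of the pathway, measured 107, 103 and 99.1 CPM with siRNA-NC and 76.6, 109 and 109 CPM with si-AC010789.1. Replicate 1 of si-AC010789.1 was the lowest of the 6 libraries, and the other 2 were above every siRNA-NC library. edgeR put the log2 fold change at -0.07 (SE 0.14, edgeR adjusted p = 0.842), and 0.081 without that library.

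**Figure D2:**
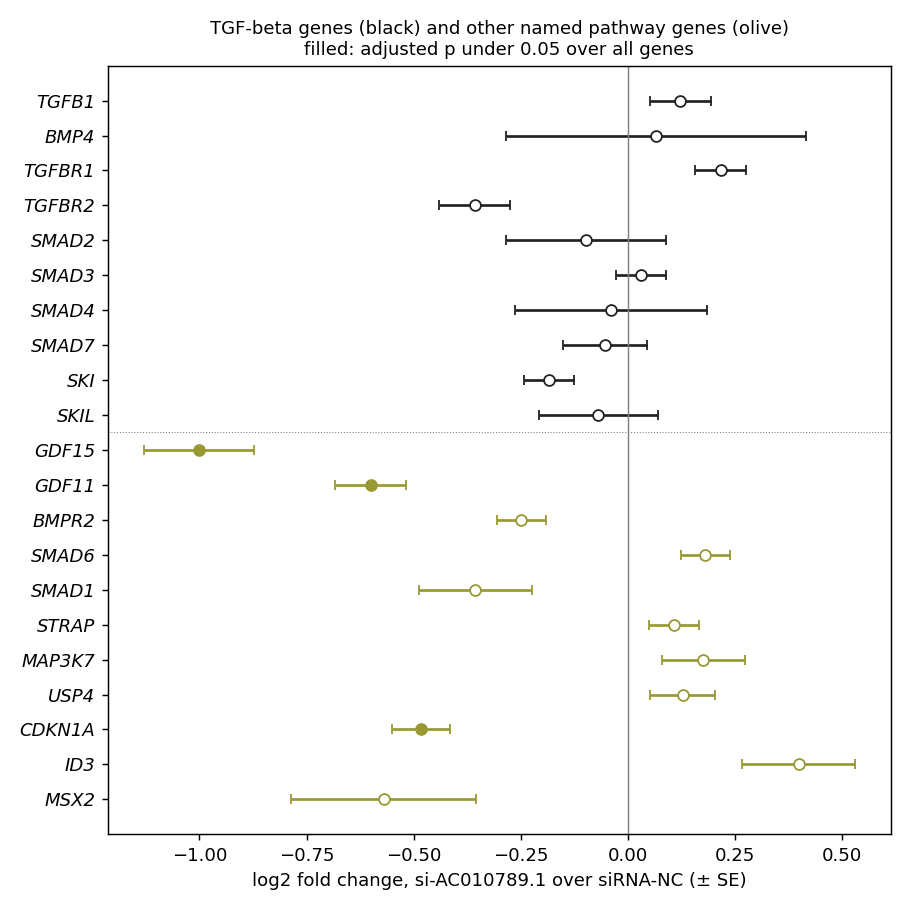
Log2 fold change (horizontal axis, si-AC010789.1 over siRNA-NC, ± SE from edgeR) of the 10 genes in black and of the other pathway genes named by rule in olive; filled points had an adjusted p under 0.05. TGFBR2 is furthest from 0 among the 10 at -0.36, and only GDF15, GDF11 and CDKN1A are filled.

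Single transcripts varied far more between replicates than the sums did, and none of those tested was called. Of the 68 transcripts, 33 passed the filter in a fit of all 44297 transcripts. By edgeR 0 of the 33 were called (0.0135% of all transcripts), 0 had an unadjusted p under 0.05 (5.74% of all), and DESeq2 called 0 (1.53% of all). Groups were apart for 3 of the 33 (14% of all transcripts), 2 higher (6.88%) and 1 lower (7.1%). The smallest unadjusted p was that of SMAD2-204, a short incomplete coding model with 11, 6 and 2 counts with siRNA-NC and 23, 15 and 17 with si-AC010789.1 (log2 fold change 1.53, SE 0.67, edgeR adjusted p = 0.893). Counts were also simulated for the whole table, with the spread that its transcripts had on average at each level. On these the transcript fit recovered 1.6% of changes of log2 size 2 and 92.5% of changes of log2 size 6. The rates are for transcripts drawn from the whole table, not for the 33. The transcripts of these genes differed widely in precision, with an SE of 0.093 for TGFB1-201 and of 2.31 for SKIL-202 on the log2 scale. On gene counts simulated in the same way, the gene fit recovered 80% of changes of log2 size 1 and 100% of those of log2 size 2.

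The type II receptor was an example. TGFBR2-202 (ENST00000359013), with the 75 extra coding bases printed above, had 84, 902 and 817 counts with siRNA-NC and 615, 691 and 475 with si-AC010789.1. TGFBR2-201 (ENST00000295754) had 873, 126 and 197 counts with siRNA-NC and 69, 159 and 246 with si-AC010789.1. The shorter form thus held 91.2% of the gene's counts in siRNA-NC replicate 1 and between 10.1% and 34.1% in the other 5 libraries. The TGFBR2 sum in that library, 957 counts, was near those of the other siRNA-NC libraries, 1028 and 1014. The log2 fold change of TGFBR2-201 was -1.40 (SE 0.92, edgeR adjusted p = 0.946) and turned to 0.067 without siRNA-NC replicate 1, and that of TGFBR2-202 was 0.09 (SE 0.77, edgeR adjusted p = 0.998). Neither form had groups that were apart, although the sum did.

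In SKIL, the coding sequence with the 138 extra bases is carried by SKIL-204 (ENST00000458537) and SKIL-201 (ENST00000259119), whose coding bases are the same, and SKIL-202 (ENST00000413427) lacks them. SKIL-202 had 507, 0 and 660 counts with siRNA-NC and 281, 0 and 632 with si-AC010789.1. It was thus at 0 in replicate 2 of both groups and held 32.0% to 50.0% of the gene's counts in the other 4 libraries. SKIL-204 had 624, 718 and 485 counts with siRNA-NC and 536, 1198 and 497 with si-AC010789.1, and SKIL-201 had 30, 574 and 61 counts and 16, 86 and 63 counts. The 2 libraries without SKIL-202 had the highest SKIL-204 counts, 718 and 1198, and the highest SKIL-201 counts, 574 and 86. None of the 3 transcripts had groups that were apart, and the edgeR adjusted p was 0.991 for SKIL-204, 0.998 for SKIL-202 and 0.942 for SKIL-201.

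SMAD7 had a different leading transcript in different libraries. SMAD7-201 (ENST00000262158), the full coding form, had 227, 59 and 47 counts with siRNA-NC and 44, 49 and 40 with si-AC010789.1, and led only in siRNA-NC replicate 1 with 82.9% of the gene's counts. SMAD7-202 (ENST00000545051), a retained-intron transcript with no coding sequence, had 35, 108 and 297 counts and 230, 111 and 88 counts. SMAD7-208 (ENST00000591805), a shorter coding form, had 0, 147 and 7 counts and 13, 149 and 142 counts. SMAD7-202 led in siRNA-NC replicate 3 and si-AC010789.1 replicate 1, and SMAD7-208 in the remaining 3 libraries, while the SMAD7 sum stayed between 274 and 372 counts. The log2 fold change of SMAD7-201 was -1.35 (SE 0.73, edgeR adjusted p = 0.922), and it was -0.14 without siRNA-NC replicate 1.

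In SMAD4, the coding transcript SMAD4-201 (ENST00000342988) led in every library and had 328, 408 and 841 counts with siRNA-NC and 457, 402 and 383 with si-AC010789.1. The retained-intron transcript SMAD4-212 (ENST00000591126) had 145, 57 and 34 counts with siRNA-NC and 41, 88 and 273 with si-AC010789.1. Its share of SMAD4 counts was highest in si-AC010789.1 replicate 3, at 38.4%, and lowest in siRNA-NC replicate 3, at 3.80%. The log2 fold change of SMAD4-212 was 0.73 (SE 0.90, edgeR adjusted p = 0.991), and it turned to -0.31 without si-AC010789.1 replicate 3. SMAD2-201 (ENST00000262160) led SMAD2 in every library, with 831, 1345 and 803 counts with siRNA-NC and 659, 1449 and 645 with si-AC010789.1. The short coding model SMAD2-207 (ENST00000586514) had 405, 125 and 55 counts and 191, 56 and 290 counts, so its share ran from 3.05% to 25.6%. SMAD2-202 (ENST00000356825), which lacks 90 coding bases of SMAD2-201, was steadier, at 130 to 202 counts per library.

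TGFBR1 was spread over several transcripts, and the order of the 3 with the most counts was the same in every library. TGFBR1-202 (ENST00000374994) led in every library, with 656, 1025 and 949 counts with siRNA-NC and 980, 988 and 1185 with si-AC010789.1. On the CPM scale its groups were apart (70.8 against 88.4 CPM, log2 fold change 0.32, SE 0.16, edgeR adjusted p = 0.913). TGFBR1-209 (ENST00000552516), whose coding sequence has 12 bases more than that of TGFBR1-202, had 397, 524 and 484 counts and 471, 452 and 438 counts, with a log2 fold change of 0.0097. TGFBR1-207 (ENST00000549766), annotated for nonsense-mediated decay, had 173, 258 and 206 counts and 278, 271 and 222 counts. The short coding model TGFBR1-204, in contrast, had 151, 57 and 163 counts and 17, 232 and 22 counts.

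In TGFB1, SKI and SMAD3 a single transcript held nearly all counts. TGFB1-201 held at least 98.6% of TGFB1 counts in each library, SKI-201 at least 98.2% of SKI counts, and SMAD3-201 at least 94.8% of SMAD3 counts. For these genes the transcript and the sum were nearly the same measurement, and SKI-201, like SKI, had groups that were apart (log2 fold change -0.20, edgeR adjusted p = 0.896). SMAD3-207, a retained-intron transcript with the smallest p of SMAD3, had 6 to 12 counts per library (log2 fold change -0.21, edgeR adjusted p = 0.994). BMP4-205 had 11 counts in si-AC010789.1 replicate 2 and 0 elsewhere, and in that library BMP4-201 was at 0, against 6 to 14 counts in the other 5.

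**Figure D3:**
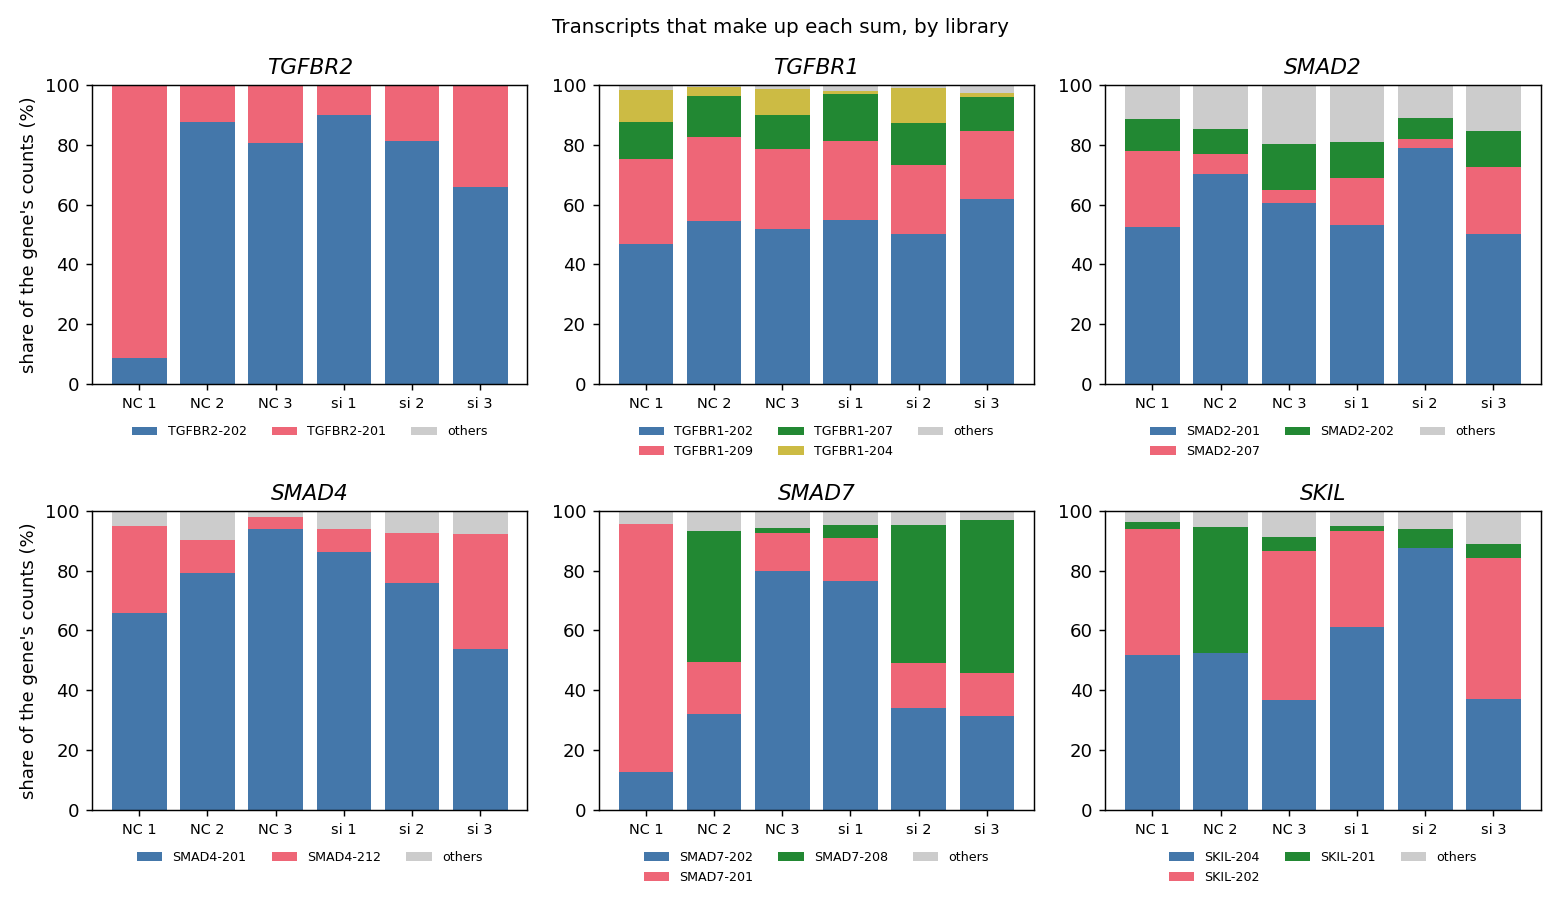
Share of each gene's counts (vertical axis, %) held by each transcript with at least 5% of the counts over all libraries. The genes drawn are TGFBR2, TGFBR1, SMAD2, SMAD4, SMAD7 and SKIL. BMP4 also has several such transcripts but is not drawn. NC 1 to 3 are siRNA-NC and si 1 to 3 si-AC010789.1 libraries. TGFBR2-201 holds 91.2% in NC 1 only, SKIL-202 is missing in NC 2 and si 2, and SMAD7 has 3 different leading transcripts.

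The leading transcript was not the same in all 6 libraries for 4 of the 10 genes (BMP4, TGFBR2, SMAD7 and SKIL), against 47.3% of the 11588 tested genes with at least 2 transcripts, so the 10 genes were near the background in this. No library stood apart across the table: the share of genes in which 1 library alone had another leading transcript ran from 2.44% to 3.05%, the highest being siRNA-NC replicate 1. The coefficient of variation (CV, SD over mean) within a group had a median of 46.0% (1.92% to 162%) over the 30 transcripts of these genes with a mean of at least 1 CPM. Over the sums of the 9 genes at that level it was 6.98% (0.442% to 30.1%). Over all transcripts the median was 35.6%, and over all genes 8.88%. How the authors divided reads shared by transcripts of 1 gene is not given in the sources used here, and its part in this spread was not tested.

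**Figure D4:**
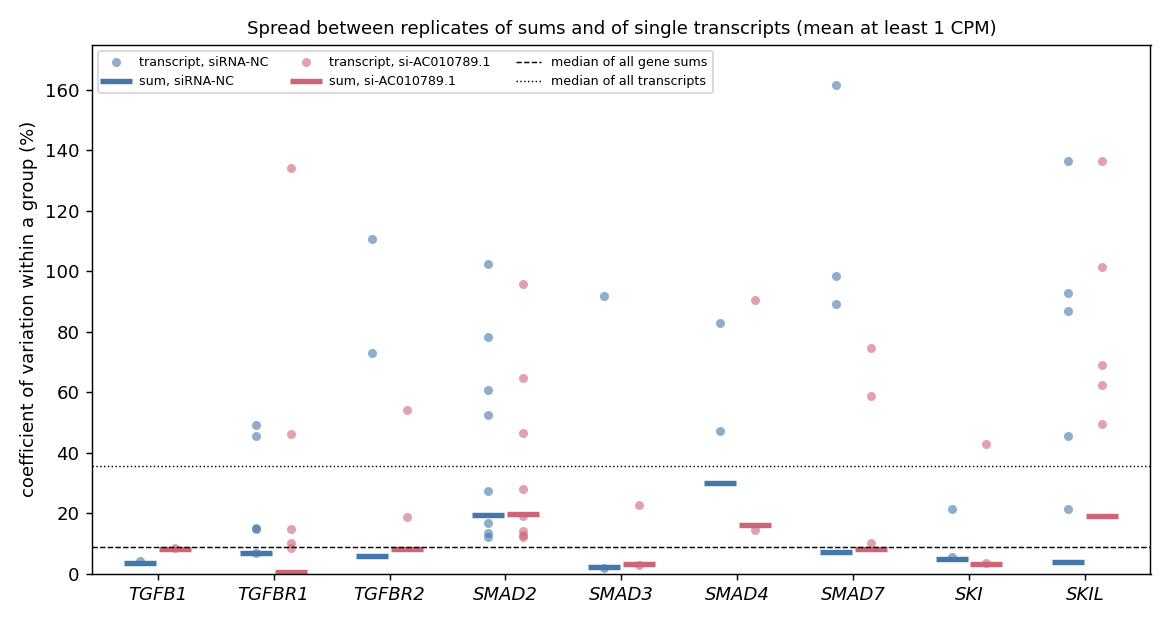
Coefficient of variation within a group (vertical axis, %) of each gene's sum (bars) and of its single transcripts with a mean of at least 1 CPM (points), for the 9 genes at that level, in blue for siRNA-NC and red for si-AC010789.1; the dashed and dotted lines are the medians of all gene sums (8.88%) and all transcripts (35.6%). Single transcripts reach 162% while the sums plotted reach 30.1%.

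Around the 10 genes, 102 other genes of the TGF-β and BMP pathways were followed, of which 99 had rows and 92 were tested. They fall into 5 lists that share a few genes. By edgeR 3 of the 92 were called, all lower, and 25 had an unadjusted p under 0.05, against 0.269% of all genes called higher, 0.676% called lower and 17.2% at the unadjusted threshold. DESeq2 called 8 of the 92, of which 74 had an adjusted p, against 3.77% of all genes tested, with or without an adjusted p. By sign, 43 were higher and 49 lower, and the median log2 fold change was -0.01.

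Among ligands and extracellular regulators, 2 of 22 tested genes were called lower by edgeR (0.676% of all genes) and none higher (0.269%). At an unadjusted p under 0.05 there were 10 (17.2% of all genes). By sign, 8 were higher and 14 lower, with a median of -0.08. GDF15, a distant member of the TGF-β family that is released under cellular stress, fell from 22.7 ± 2.76 CPM to 11.3 ± 1.17 CPM (SD, n = 3; log2 fold change -1.0, SE 0.13, edgeR adjusted p = 0.0327). GDF11, an activin-type ligand that signals through SMAD2 and SMAD3, fell from 83.3 ± 7.29 CPM to 54.9 ± 2.70 CPM (log2 fold change -0.60, SE 0.083, edgeR adjusted p = 0.0396). Both were lower in each si-AC010789.1 library than in every siRNA-NC library. In each of the 6 fits that left out 1 library both calls were lost, with adjusted p from 0.0767 to 0.114 for GDF15 and from 0.0656 to 0.136 for GDF11. The log2 fold changes in those fits stayed between -1.08 and -0.90 for GDF15 and between -0.67 and -0.54 for GDF11. DESeq2 called 4 of the 22 tested (3.77% of all genes tested), of which 16 had an adjusted p. The 4 were these and 2 more that are named after their values were seen. LTBP3, which binds latent TGF-β, was at 62.8 ± 3.61 and 47.65 ± 1.84 CPM (DESeq2 adjusted p = 0.00397, edgeR adjusted p = 0.0659). ITGAV, the integrin subunit that takes part in activating latent TGF-β, was at 214 ± 1.51 and 188 ± 2.97 CPM (DESeq2 adjusted p = 0.0461, edgeR adjusted p = 0.0868).

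Among the other receptors and SMADs, 0 of 14 were called by edgeR (0.944% of all genes). DESeq2 called 0 of the 11 with an adjusted p, against 3.77% of all genes tested, with or without an adjusted p. At an unadjusted edgeR p under 0.05 there were 4 (17.2% of all genes). By sign, 8 were higher and 6 lower, with a median of 0.05. BMPR2, the type II receptor of the BMP branch, was at 86.7 ± 1.62 CPM with siRNA-NC and 73.0 ± 2.91 CPM with si-AC010789.1 (log2 fold change -0.25, edgeR adjusted p = 0.107). SMAD6, the inhibitory SMAD of the BMP branch, was at 64.5 ± 1.59 and 73.1 ± 2.45 CPM (log2 fold change 0.18, edgeR adjusted p = 0.194). SMAD1, which carries the BMP signal, was at 11.7 ± 0.646 and 9.14 ± 1.24 CPM (log2 fold change -0.36, edgeR adjusted p = 0.247). The groups were apart for all 3, which were named for the smallest p-values of the list, and none passed the test. Over the 14 genes the groups were apart for 3 higher and 2 lower, against 12.2% and 12.9% of all genes.

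The intracellular modulators and nuclear partners had the narrowest range of fold changes of the 5 lists. Of 29 tested genes 0 were called by edgeR (0.944% of all genes) or DESeq2 (3.77%). None had an unadjusted edgeR p under 0.05 (17.2% of all genes). All log2 fold changes lay between -0.17 and 0.18 around a median of -0.03. The smallest p-values belonged to STRAP, which binds the receptors (log2 fold change 0.11, edgeR adjusted p = 0.408), MAP3K7, the kinase of the SMAD-independent branch (0.18, adjusted p = 0.412), and USP4, a deubiquitinase (0.13, adjusted p = 0.445).

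Of the TGF-β target genes, 1 of 21 was called by edgeR (0.944% of all genes). At an unadjusted p under 0.05 there were 9 (17.2% of all genes). By sign, 13 were higher and 8 lower, with a median of 0.14. CDKN1A, the cell cycle inhibitor p21, fell from 145 ± 11.1 CPM to 103.5 ± 2.85 CPM (log2 fold change -0.48, SE 0.068, edgeR adjusted p = 0.0401), and its adjusted p was 0.0636 to 0.141 in the 6 fits that left out 1 library, where the call was lost and the log2 fold change stayed between -0.54 and -0.43. DESeq2 called 4 of the 21 tested (3.77% of all genes tested), of which 16 had an adjusted p. Among the 4 were CDKN1A lower and CYR61 and COL4A1 higher. CYR61 and COL4A1 were chosen for naming after their values were seen. CYR61, a matricellular protein, was at 65.5 ± 4.86 and 82.8 ± 6.46 CPM (edgeR log2 fold change 0.34, adjusted p = 0.133, DESeq2 adjusted p = 0.0477). COL4A1, a basement membrane collagen, was at 284 ± 20.1 and 342 ± 13.6 CPM (edgeR log2 fold change 0.27, adjusted p = 0.112, DESeq2 adjusted p = 0.0302). Genes of this list thus lay on both sides of 0, and the 4 called by DESeq2 did not share a direction.

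Of the BMP target genes, 0 of 10 were called by edgeR (0.944% of all genes). DESeq2 called 0 of the 5 with an adjusted p, against 3.77% of all genes tested, with or without an adjusted p. By sign, 5 were higher and 5 lower, with a median of 0.00090. At an unadjusted edgeR p under 0.05 there were 3 (17.2% of all genes). Besides SMAD6, these were ID3, an inhibitor of basic helix-loop-helix factors, at 40.2 ± 4.29 and 53.0 ± 7.52 CPM (log2 fold change 0.40, edgeR adjusted p = 0.209), and MSX2, a homeobox factor, at 3.96 ± 0.499 and 2.66 ± 0.573 CPM (log2 fold change -0.57, edgeR adjusted p = 0.254).

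**Figure D5:**
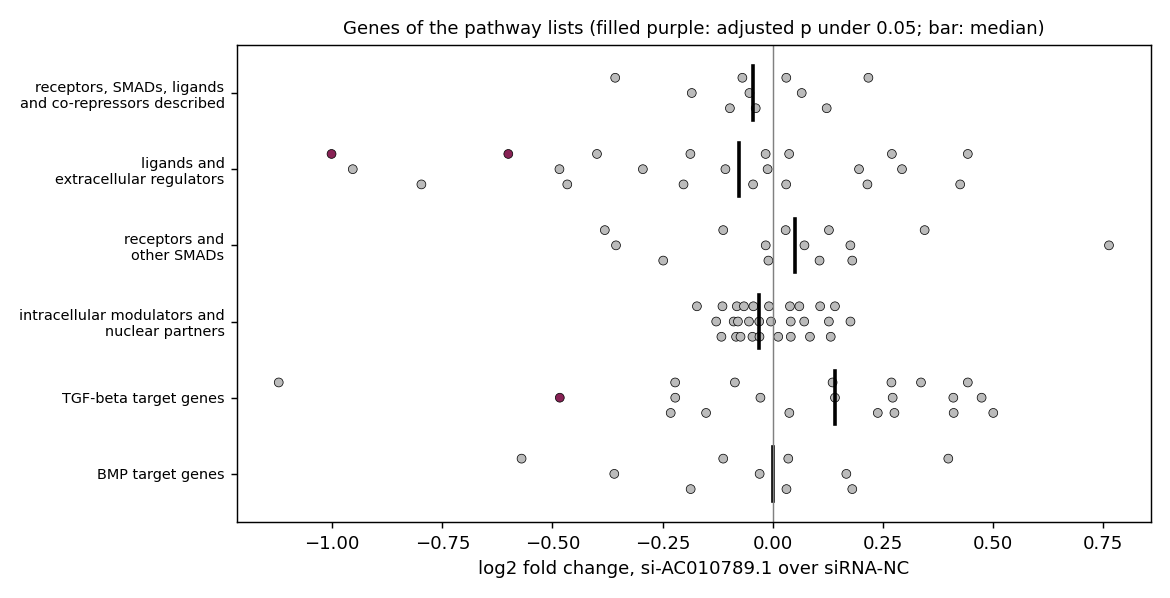
Log2 fold change (horizontal axis, si-AC010789.1 over siRNA-NC) of every tested gene, by list (rows), with the list median as a black bar and genes with an edgeR adjusted p under 0.05 in purple. The 10 genes span -0.36 to 0.22 with none in purple, and the intracellular modulators span -0.17 to 0.18.

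The genes whose levels followed TGFBR2 most closely over the 6 libraries, by Pearson correlation of log2(CPM + 1), were LIAS (r = 0.994), BTF3L4P2 (r = 0.993) and KRT8P45 (r = 0.992). The correlation is a description over 6 libraries that share the difference between the groups, and 72 genes had an r above 0.95. LIAS encodes a mitochondrial lipoic acid synthase, with 4.34, 4.07 and 3.90 CPM with siRNA-NC and 2.80, 3.28 and 2.59 CPM with si-AC010789.1. BTF3L4P2 and KRT8P45 are annotated processed pseudogenes, whose counts may be split with their parent genes and are uncertain.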

How the data were processed

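RNA from 6 HCT116 samples was sequenced by the authors as paired-end TruSeq libraries. The authors deposited counts: whole, unnormalised numbers per Ensembl transcript. The submitters' processing notes name CASAVA 1.8, TopHat2 2.0.6, GRCh38 and mm10 with no role, and the study names Cuffdiff for its own tests; the counting program is not given in the sources used here.

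Of 98886 transcripts, 98803 were matched to GENCODE v29 (83 were not) and summed per gene. Genes, and separately transcripts, were tested with edgeR 4.0.16 in R 4.3.3 (TMM, filterByExpr with minimum count 10 and minimum total 15, glmQLFit, glmQLFTest, no covariate, Benjamini-Hochberg, threshold 0.05), after the fit was tested on simulated data. CPM use TMM-scaled library sizes, so a transcript and its gene carry slightly different scales. TPM divide each transcript's counts by its length. Library totals were 11277222 to 13443866, and floors cover counting error only. Replicates differed by more than counting noise. Single values were compared by exact two-sided permutation. Alternatives were DESeq2 1.42.0, its size factors, other filters, coding transcripts only, a replicate block and leaving out each library.

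Named were all 10 genes; per list the called genes, or else the 3 smallest p-values; transcripts holding at least 10% of their gene's counts or with a gene's smallest p; and the 3 genes most correlated with TGFBR2. The genes and lists were chosen with earlier results of these data known. A few items that passed these rules are not reported here.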

Additional observations from a re-analysis of the deposited data

How the results depend on the processing

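Of all genes, 130 were called by edgeR, 519 with DESeq2, 127 with DESeq2's size factors in place of TMM, 131 among genes with a mean of at least 1 CPM, 69 with no filter on low counts, 56 when summing protein-coding transcripts only, and between 12 and 37 when leaving out 1 library. Of the 10 TGF-β genes, 1 was called with DESeq2 (TGFBR2) and 0 under every other setting tried, with 2 or 3 at an unadjusted p under 0.05. BMP4 was below a mean of 1 CPM and had no value under that filter. Of the other pathway genes, 3 were called by edgeR, 8 with DESeq2, and 0 with no filter, with coding transcripts only and without any 1 library (26, 21 and 18 to 22 at an unadjusted p under 0.05), so that GDF15, GDF11 and CDKN1A each lost the call there. Of all transcripts, 6 were called by edgeR, 676 with DESeq2, 0 with no filter (4431 unadjusted) and 0 to 6 without any 1 library. The causes of these differences were not tested.

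The labels do not say that a replicate number marks a shared passage. Deviations from the group mean correlated at 0.09, 0.0027 and 0.00070 between same-numbered libraries of the groups. Between differently numbered libraries they correlated at -0.077 to 0.079. With so few libraries, these values cannot decide whether the samples were paired. With the replicate number as a block, edgeR called 0 genes (2162 at an unadjusted p under 0.05), 0 of the 10 TGF-β genes, 0 other pathway genes (22 unadjusted) and 0 transcripts (1760 unadjusted). GDF15, GDF11 and CDKN1A then had adjusted p of 0.174, 0.143 and 0.167, at log2 fold changes of -0.9988, -0.60 and -0.48.

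Of 119 fold changes of the 10 genes under the alternatives, 110 kept direction and side of the threshold and 8 reversed, all when leaving out 1 library. Without 1 library, BMP4 ran from -0.080 to 0.39, SMAD4 from -0.19 to 0.23, SMAD7 from -0.094 to 0.013 and SKIL from -0.15 to 0.081. With coding transcripts only, SMAD4 was at -0.25 and SMAD7 at -0.20. Among transcripts without 1 library, TGFBR2-201 ran from -1.86 to 0.067, SMAD4-212 from -0.31 to 1.65 and SKIL-201 from -2.45 to 0.29. TGFBR2, TGFBR1, SKI, TGFB1, SMAD2 and SMAD3 kept their sign under every alternative. BMP4 had 7 to 15 counts per library, the lowest depth of the 10 genes.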
